A study of Mus musculus with 16 samples.

Results

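The genes described here supply the thymocyte with fuel and nutrients. They encode transporters that bring glucose, amino acids and iron into the cell, enzymes of glycolysis and of the pentose phosphate pathway, and lactate transporters. Others encode a subunit of pyruvate dehydrogenase, which uses pyruvate in the mitochondrion, a kinase that inhibits it, and a subunit of HIF-1. All were taken from a list of 35 gene symbols chosen by function. Of these, 32 had at least 1 probe set naming a single gene on the array, out of 18194 such genes, and Gpi1, Eno1 and G6pdx were not analysed here. Each gene was read from 1 probe set, the brightest of those that name it alone, and 80 probe sets belonged to the 32 genes.

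RNA of early thymocytes was hybridised to Affymetrix mouse whole-genome arrays to ask which transcripts depend on PKBα (Akt1), a serine/threonine kinase of the insulin and pre-TCR signalling pathways. The 16 arrays fall into 4 groups of 4 mice each: ISP8 cells of PKBα-/- mice, ISP8 cells of PKBα+/+ mice, DN3 cells of PKBα-/- mice and DN3 cells of PKBα+/+ mice. DN3 cells are double negative thymocytes, CD25+ and CD44- and lineage-negative, and ISP8 cells are immature single positive thymocytes, which carry CD8 without CD4 and CD3. The 8 mice formed 4 pairs of a knockout and a wild-type littermate on a background that was mostly, but not wholly, C57Bl/6. Pair 1 was female and 3 weeks old, pair 2 male and 3 weeks old, pair 3 male and 2 weeks old, and pair 4 female and 5 weeks old. Both subsets were sorted from every mouse, each array holding RNA of 1 mouse, with different stains, so subset and sort cannot be told apart. PKBα was missing from the whole animal, thymic stroma included.

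Glycolysis splits glucose into pyruvate in the cytosol and yields ATP, while the pentose phosphate pathway diverts glucose 6-phosphate to make NADPH and ribose for nucleotides. Cells that divide fast commonly reduce pyruvate to lactate and export it, even where oxygen is plentiful. In the thymus, DN3 cells that have assembled a pre-TCR grow and divide as they pass through the ISP8 stage to become double positive, and PKB is known to promote glucose uptake and glycolysis in lymphocytes.

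Values are GC-RMA intensities, summaries of the brightness of a probe set on a linear scale that show changes of 1 gene. Levels of different genes can be set against each other only roughly, which the study calls semi-quantitative, and sums over genes carry the same limit. Where 4 values of a group are given, they stand in the order of pairs 1 to 4. Akt1 read 2.01 to 27.3 on the 8 PKBα-/- arrays and 1198 to 2211 on the 8 PKBα+/+ arrays. Stage markers mostly followed the labels. Of 12 DN3 genes, 10 were lower in ISP8 cells. Il2ra, which encodes CD25, itself used to define DN3 cells, read 84.8 to 460.1 in ISP8 cells and 6899 to 10971 in DN3 cells. Of 9 genes of the ISP8 and double positive stage, 6 were higher in ISP8 cells and 1 was lower. All 9 proliferation genes with a probe set were higher in ISP8 cells, with a summed intensity of 99665 to 113522 in ISP8 cells and 39017 to 54473 in DN3 cells. Markers of other cells moved in part. All 4 gamma-delta T cell genes were lower, with a sum of 303 to 731 in ISP8 cells and 1342 to 5421 in DN3 cells, and 1 of 4 genes of mature single positive T cells was higher (4579 to 7416 in ISP8 and 2733 to 4384 in DN3 cells). The mature T cell sum was mostly Itm2a, at 4292 to 7229 in ISP8 and 2515 to 4202 in DN3 cells. Calls went both ways for B cells (2 higher and 2 lower of 6 tested), NK and innate lymphoid cells (2 and 2 of 6) and dendritic cells and macrophages (3 and 3 of 10). The B cell sum of 14436 to 22139.9 in ISP8 and 9587 to 12735 in DN3 cells was mostly Ighm, while Cd79a read 6.27 to 37.9 in ISP8 and 1.94 to 47.6 in DN3 cells. Of thymic stroma 1 of 10 genes was lower (269 to 531 in ISP8 and 628 to 1246 in DN3 cells), of erythroid genes 1 of 6 (349.9 to 619.8 in ISP8 and 428 to 667 in DN3 cells), and of neutrophil genes 0 of 6 changed (92.3 to 4422 in ISP8 and 96.1 to 1470.2 in DN3 cells). In DN3 cells the stroma sum was mostly Epcam, at 332 to 952, against 33.3 to 132 in ISP8 cells. Actin, whose 3' probe set reads above its 5' one where RNA is shortened, showed a gap between them of 1.85 to 2.90 (log2) in ISP8 cells and 2.50 to 3.11 in DN3 cells. The same gap of Gapdh was 1.49 to 2.39 in ISP8 cells and 1.41 to 2.27 in DN3 cells.

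ISP8 cells differed from DN3 cells in 19 of the 32 genes, 14 of them higher and 5 lower (limma with mouse as a block, adjusted p below 0.05, 8 mice). This comparison called 42.2% of the 32831 probe sets tested, and 46.9% of the 14076 genes when read from 1 probe set each, 20.2% as higher and 26.7% as lower. Among genes with a mean intensity above 500, a split chosen after the data were seen, 17 of 28 genes of the set passed, against 65.8% of all genes at that level. The number called was thus not above the background at that level, and what follows describes which genes they were. By direction, 13 of the 28 were higher and 4 lower, beside 34.1% and 31.7% of all genes at that level. The median log2 change was 0.19 for the set and -0.033 for all genes without that split. Above 500 it was 0.15 for the set and 0.020 for all genes. In bulk RNA, fewer cells that express a gene and less of its RNA per cell cannot be told apart, and the part that proliferation, other cell types and RNA length had in these changes was not tested.

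**Figure D1:**
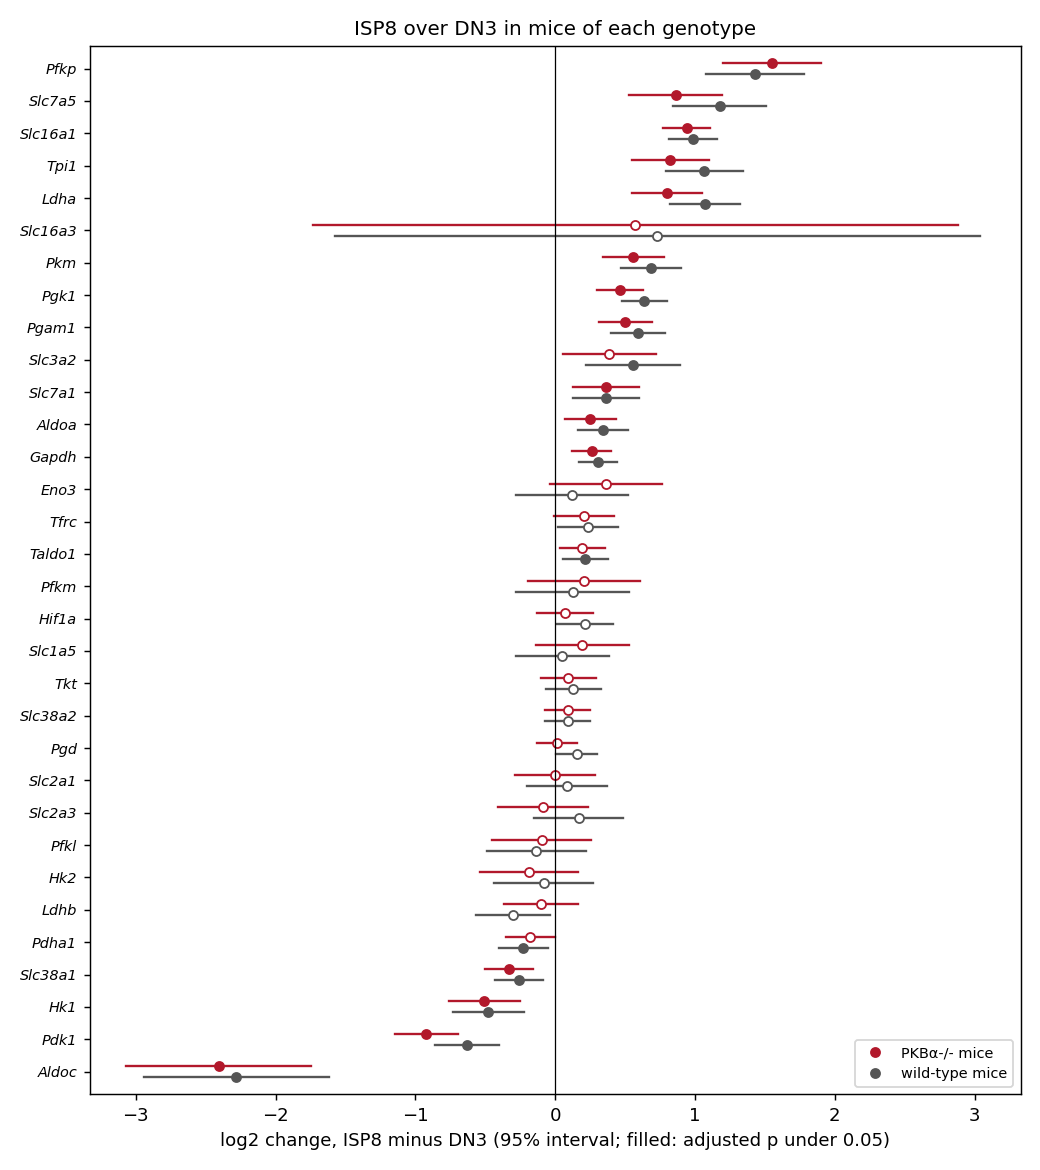
Fitted log2 change in ISP8 over DN3 cells with its 95% interval for each of the 32 genes, in 4 PKBα-/- mice above 4 PKBα+/+ mice, ordered by the change over all 8 mice, with filled points for an adjusted p below 0.05. Pfkp (1.49 over all mice) stands at the top and Aldoc (-2.34) at the bottom, and the intervals of the 2 genotypes overlap in every gene.

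Glucose transport did not pass the test in either direction. Slc2a1, which encodes the widely expressed transporter GLUT1, read between 540.2 and 769 in ISP8 cells (median 641), against 559 to 676 in DN3 cells (median 626), a log2 change of 0.043 (95% interval -0.16 to 0.25, adjusted p = 0.757). Slc2a3, which encodes the high-affinity transporter GLUT3, read 1228, 1318, 1262 and 840.4 in ISP8 PKBα-/- cells and 1104, 1306, 1178 and 1028 in ISP8 PKBα+/+ cells, against 1448, 1244, 1198 and 1011 in DN3 PKBα-/- cells and 1382, 1275, 1036 and 601 in DN3 PKBα+/+ cells. The 4 groups overlapped, the lowest array being DN3 PKBα+/+ of pair 4, and the log2 change was 0.041 (95% interval -0.18 to 0.27, adjusted p = 0.797). Slc2a3 depended on its probe set: without those that can bind several transcripts it was read from a dim one at 0.39 (adjusted p = 0.652), and the average of its probe sets gave 0.30 (adjusted p = 0.288).

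In upper glycolysis, 4 of 7 genes changed. Pfkp, the platelet-type phosphofructokinase of the committing step, rose most of the set. It read 2334, 2266, 2757 and 2487 in ISP8 PKBα-/- cells and 2167, 2408, 2688 and 2662 in ISP8 PKBα+/+ cells, against 789, 869, 1310.4 and 550.4 in DN3 PKBα-/- cells and 769.5, 1229.8, 1068 and 704 in DN3 PKBα+/+ cells. Every ISP8 array lay above every DN3 array, with the DN3 arrays of the females in pairs 1 and 4 lowest, and the log2 change was 1.49 ± 0.12 (SE, 2.81-fold, adjusted p = 5.07e-08). Its other probe sets passed as well, at 2.20 and 0.95.

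The liver-type Pfkl changed by -0.12 (95% interval -0.37 to 0.13, adjusted p = 0.471) and the muscle-type Pfkm by 0.17 (95% interval -0.12 to 0.45, adjusted p = 0.354), neither past the threshold, although a dimmer probe set of Pfkl fell by 0.88 on the log2 scale (adjusted p = 0.000439). Aldoa, the main aldolase of most tissues, rose by 0.30 ± 0.06 (SE, adjusted p = 0.000726) and all 4 of its other probe sets passed in the same direction, at 0.33 to 0.59. Aldoc, the aldolase best known from brain, fell most. It read 87.9, 35.7, 60.8 and 54.8 in ISP8 PKBα-/- cells and 74.4, 79.6, 33.3 and 69.8 in ISP8 PKBα+/+ cells, against 205, 311, 343 and 379 in DN3 PKBα-/- cells and 241, 337, 263 and 360.5 in DN3 PKBα+/+ cells. No ISP8 array reached the lowest DN3 array, and the change of -2.34 ± 0.22 (SE, 0.197-fold, adjusted p = 3.67e-07) was lower in 8 of 8 mice. Its dimmer probe set fell by 1.99.

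Hexokinase phosphorylates glucose and so keeps it in the cell. Hk1, its housekeeping form, read 1070.5, 963, 1042 and 1374 in ISP8 PKBα-/- cells and 877, 1165, 1132 and 1089 in ISP8 PKBα+/+ cells, against 1396, 1559, 1560.1 and 1775 in DN3 PKBα-/- cells and 1048, 1896, 1342 and 1775 in DN3 PKBα+/+ cells. ISP8 arrays were lower within 8 of 8 mice but overlapped with DN3 arrays between mice, since the ISP8 PKBα-/- array of pair 4 was high and the DN3 PKBα+/+ array of pair 1 low, and the log2 change was -0.49 ± 0.084 (SE, 0.711-fold, adjusted p = 0.000179). Hk2, the form induced by growth signals, changed by -0.14 (95% interval -0.38 to 0.11, adjusted p = 0.387).

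The enzymes of lower glycolysis moved the same way: 5 of 6 rose and none fell. Tpi1, which interconverts the triose phosphates, read 7617, 7628, 8623 and 5487 in ISP8 PKBα-/- cells and 8349, 9488, 6889.8 and 7176 in ISP8 PKBα+/+ cells, against 3750.5, 4315, 5553 and 3117 in DN3 PKBα-/- cells and 3273, 4440.0, 5237 and 2670.2 in DN3 PKBα+/+ cells. ISP8 arrays were higher in 8 of 8 mice and overlapped only through the ISP8 PKBα-/- array of pair 4, which lay below the DN3 PKBα-/- array of pair 3. The log2 change was 0.95 ± 0.091 (SE, 1.93-fold, adjusted p = 5.00e-07), and 0.81 and 0.61 from the other probe sets of Tpi1.

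Pgk1, the first ATP-yielding step, read 13760.5, 15720.1, 17346 and 13041 in ISP8 PKBα-/- cells and 14542, 18008, 15865 and 13369.9 in ISP8 PKBα+/+ cells, against 11734, 10577, 11086 and 9830.1 in DN3 PKBα-/- cells and 9804, 10180.1, 11224 and 8444 in DN3 PKBα+/+ cells. Pgam1, which moves the phosphate group of 3-phosphoglycerate, read 4267, 4874, 4935 and 4216 in ISP8 PKBα-/- cells and 4360.1, 4692, 5125 and 4199 in ISP8 PKBα+/+ cells, against 3215, 3288, 3473 and 2928 in DN3 PKBα-/- cells and 3276, 3496, 3246 and 2283 in DN3 PKBα+/+ cells. In both genes all ISP8 arrays lay above all DN3 arrays, with log2 changes of 0.55 ± 0.054 (SE, 1.47-fold, adjusted p = 5.52e-07) for Pgk1 and 0.55 ± 0.063 (SE, 1.46-fold, adjusted p = 3.50e-06) for Pgam1. Other probe sets of Pgk1 gave 0.50 and 1.23.

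Pkm, the pyruvate kinase that makes pyruvate, read 4108, 5611, 6731 and 5120.1 in ISP8 PKBα-/- cells and 4431, 5488, 6676 and 4758 in ISP8 PKBα+/+ cells, against 2827, 3895, 4745 and 3221 in DN3 PKBα-/- cells and 2538, 4639.9, 4088 and 2408 in DN3 PKBα+/+ cells. Its ISP8 value exceeded the DN3 value in 8 of 8 mice, but the subsets overlapped because pair 1 was low in ISP8 cells, while the DN3 arrays of the pair 3 knockout and the pair 2 wild type were high. The log2 change was 0.62 ± 0.072 (SE, 1.54-fold, adjusted p = 3.38e-06). Gapdh, read from the 3' control probe set of the array, rose by 0.28 ± 0.045 (SE, adjusted p = 9.51e-05), and Eno3, the muscle enolase, changed by 0.24 (95% interval -0.042 to 0.53, adjusted p = 0.165).

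Of 4 genes of lactate production and export, 2 rose and none fell. Ldha, the lactate dehydrogenase subunit that favours lactate formation, read 15624, 17648, 18351 and 15321 in ISP8 PKBα-/- cells and 17237, 17484, 19260.3 and 15433 in ISP8 PKBα+/+ cells, against 9857, 10214, 11881 and 7023 in DN3 PKBα-/- cells and 6609, 10916, 11382 and 5597 in DN3 PKBα+/+ cells. Slc16a1, which encodes the proton-coupled lactate transporter MCT1, read 7454, 9447, 9912 and 7068 in ISP8 PKBα-/- cells and 7722, 8037, 9196 and 7523 in ISP8 PKBα+/+ cells, against 4439.7, 4313, 4868 and 3905 in DN3 PKBα-/- cells and 3861, 4409, 4792 and 3437 in DN3 PKBα+/+ cells. In both, the lowest ISP8 array exceeded the highest DN3 array. Ldha changed by 0.94 ± 0.084 (SE, 1.91-fold, adjusted p = 2.12e-07) and Slc16a1 by 0.96 ± 0.057 (SE, 1.95-fold, adjusted p = 2.02e-09), each higher in 8 of 8 mice. Ldhb, the subunit that favours pyruvate formation, changed by -0.20 (95% interval -0.39 to -0.013, adjusted p = 0.0806), with 0.12, -0.11 and 0.17 from its other probe sets. Slc16a3, the exporter MCT4, read between 8.03 and 61.0 in ISP8 cells (median 32.3), against 3.25 to 47.9 in DN3 cells (median 18.0), close to the filter, and its change of 0.65 (95% interval -0.98 to 2.28, adjusted p = 0.538) was poorly determined.

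**Figure D2:**
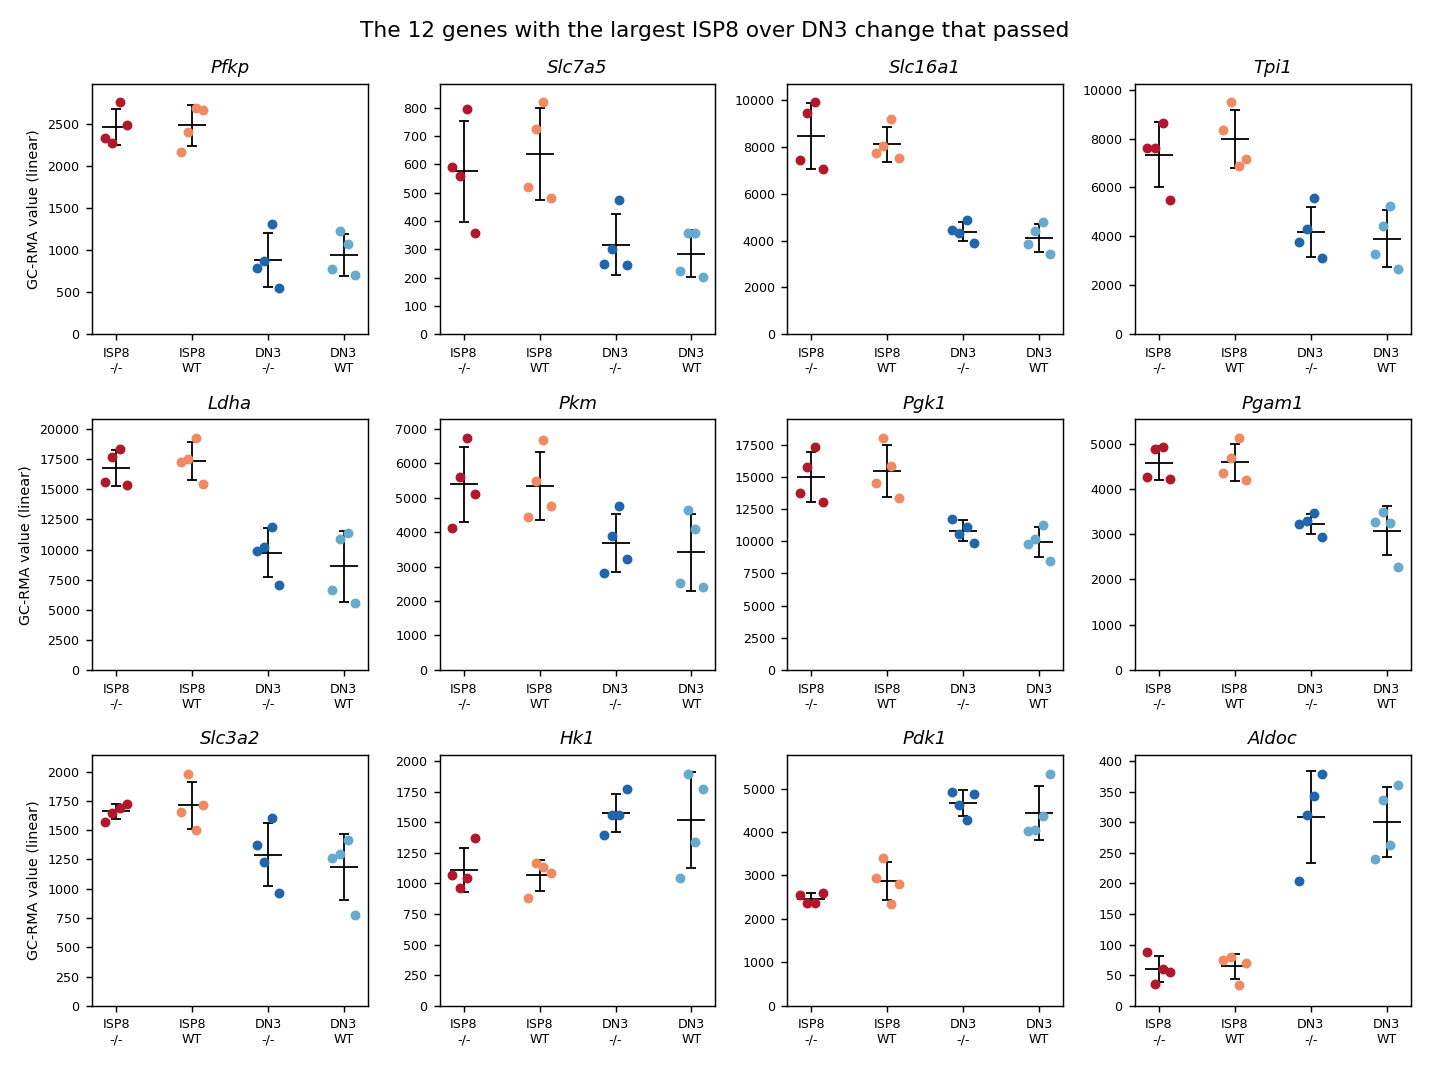
Intensity (linear scale) on each of the 16 arrays for the 12 genes with the largest changes that passed in ISP8 over DN3 cells, with horizontal lines at the mean of 4 mice and error bars of 1 SD, in the order ISP8 PKBα-/-, ISP8 PKBα+/+, DN3 PKBα-/-, DN3 PKBα+/+. In Ldha every ISP8 array lies at or above 15321 and every DN3 array at or below 11881, while knockout and wild-type points intermingle within each subset.

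Promoters of 6 genes that carry these changes are shown, 4 that rose and 2 that fell (Pdk1 and Aldoc), to give the sequence next to the measured transcript. They were not picked by the size of the change alone, so they do not stand for all genes that changed. Each is the 250 bases before the RefSeq start on GRCm38.p6, written 5′ to 3′ on the strand of the gene, with the motifs CACGTG, plus the shorter ACGTG, plus GCGTG in capitals on either strand, so that the reverse form CACGT of the first core, likewise CACGC of the second, appears too. CACGTG is the E-box bound by MYC with MAX and by the MLX family, and ACGTG, like GCGTG, is a core of hypoxia response elements bound by HIF-1. Each CACGTG holds ACGTG on both strands. For Ldha, Pdk1 and Aldoc the first of 2 listed starts was used.
Slc16a1 (chr3:104638414-104638663, plus strand): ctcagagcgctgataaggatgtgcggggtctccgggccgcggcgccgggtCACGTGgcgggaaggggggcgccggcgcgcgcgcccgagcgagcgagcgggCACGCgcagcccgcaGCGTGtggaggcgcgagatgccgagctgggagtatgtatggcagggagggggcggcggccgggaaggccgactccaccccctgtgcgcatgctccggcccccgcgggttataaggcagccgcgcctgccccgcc
Ldha (chr7:46845554-46845803, plus strand): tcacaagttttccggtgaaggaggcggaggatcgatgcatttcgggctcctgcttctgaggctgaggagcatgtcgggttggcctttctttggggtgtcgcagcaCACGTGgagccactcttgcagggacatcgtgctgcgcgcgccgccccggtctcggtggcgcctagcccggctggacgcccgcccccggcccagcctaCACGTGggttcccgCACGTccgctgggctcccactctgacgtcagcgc
Pgk1 (chrX:106186850-106187099, plus strand): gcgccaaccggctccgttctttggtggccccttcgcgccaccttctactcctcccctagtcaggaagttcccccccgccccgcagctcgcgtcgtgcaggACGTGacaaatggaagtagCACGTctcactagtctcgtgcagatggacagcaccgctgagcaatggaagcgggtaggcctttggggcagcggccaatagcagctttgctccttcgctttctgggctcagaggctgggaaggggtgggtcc
Pfkp (chr13:6648772-6649021, minus strand): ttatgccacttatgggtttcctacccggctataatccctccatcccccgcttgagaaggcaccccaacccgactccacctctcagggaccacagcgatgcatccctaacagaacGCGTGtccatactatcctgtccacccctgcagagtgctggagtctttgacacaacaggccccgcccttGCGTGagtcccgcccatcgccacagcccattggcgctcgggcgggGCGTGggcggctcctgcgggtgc
Pdk1 (chr2:71872974-71873223, plus strand): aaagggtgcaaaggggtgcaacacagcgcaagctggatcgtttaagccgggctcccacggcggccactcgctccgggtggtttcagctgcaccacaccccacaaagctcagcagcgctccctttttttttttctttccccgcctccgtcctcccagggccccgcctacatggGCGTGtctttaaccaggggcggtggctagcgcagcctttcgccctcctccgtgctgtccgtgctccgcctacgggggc
Aldoc (chr11:78322823-78323072, plus strand): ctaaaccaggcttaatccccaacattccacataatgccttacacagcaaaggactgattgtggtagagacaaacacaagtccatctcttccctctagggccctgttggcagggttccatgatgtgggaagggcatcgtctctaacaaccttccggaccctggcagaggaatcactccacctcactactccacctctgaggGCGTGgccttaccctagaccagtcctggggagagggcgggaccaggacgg

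Slc16a1 held 1 CACGTG and Ldha 2, with 2 and 5 occurrences of ACGTG counted over both strands, and Pgk1 held 2 ACGTG. Pfkp held 3 GCGTG, Slc16a1 held 2, and Pdk1 and Aldoc 1 each. Tpi1, not shown, rose more than Pgk1 (log2 change 0.95 against 0.55), and its window held none of these motifs. RefSeq windows were matched for 31 of the 35 listed genes, 46 windows in all, and Slc2a3, Slc7a5, Slc1a5 and Slc38a1 had none. CACGTG was in 4 of the 46 windows, against 6.02% of the 32851 windows of all genes. ACGTG was in 15 of 46 against 16.6%, and GCGTG in 25 of 46 against 28.2%. The windows of these genes were richer in G and C, with a median of 60.8% against 52.4% over all windows, and the part of base composition in these shares was not tested. Among genes with a window, ACGTG was held by 8 of the 13 that rose, 0 of the 4 that fell and 5 of the 11 that did not pass, beside 18.5% of all genes with a window. GCGTG was held by 7 of the 13 that rose, 4 of the 4 that fell and 7 of the 11 that did not pass, beside 30.9%, and CACGTG by 2, 0 and 2, beside 6.86%. These matches describe letters and not bound sites.

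Amino acid and iron uptake rose in part, with 4 of 7 genes higher and 1 lower. Slc7a5, the light chain LAT1 of the transporter for large neutral amino acids, read 590.0, 558, 795 and 358 in ISP8 PKBα-/- cells and 519.6, 726, 819.9 and 481 in ISP8 PKBα+/+ cells, against 247, 300.3, 473 and 245 in DN3 PKBα-/- cells and 223, 356, 356 and 202 in DN3 PKBα+/+ cells. Slc3a2, which encodes CD98, the heavy chain that LAT1 needs at the cell surface, read 1574, 1648, 1694 and 1728 in ISP8 PKBα-/- cells and 1653, 1982, 1503 and 1713 in ISP8 PKBα+/+ cells, against 1372, 1229, 1607 and 961 in DN3 PKBα-/- cells and 1265, 1298, 1414 and 777 in DN3 PKBα+/+ cells. Both were higher in ISP8 cells of 8 of 8 mice, with log2 changes of 1.02 ± 0.11 (SE, 2.03-fold, adjusted p = 1.79e-06) for Slc7a5 and 0.47 ± 0.11 (SE, 1.39-fold, adjusted p = 0.00259) for Slc3a2. Each overlapped between subsets through the DN3 PKBα-/- array of pair 3, the highest of the DN3 arrays.

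Slc7a1, the transporter of cationic amino acids, rose by 0.36 ± 0.079 (SE, adjusted p = 0.0014). A probe set of Slc7a1 near the filter gave -0.80 without passing, and another gave 0.65 and passed. Slc38a1, a sodium-coupled glutamine transporter, was lower at -0.30 ± 0.057 (SE, adjusted p = 0.000507) with no overlap between the 8 ISP8 and 8 DN3 arrays, but its second probe set gave -0.011 and the fall did not pass when arrays were centred on their medians (adjusted p = 0.0745). Slc38a2 of the same family changed by 0.089 (95% interval -0.024 to 0.20, adjusted p = 0.2), while a dimmer probe set of it fell by 0.58 (adjusted p = 0.0138), and the glutamine transporter Slc1a5 changed by 0.12 (95% interval -0.11 to 0.36, adjusted p = 0.406).

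Tfrc, the transferrin receptor that brings in iron, was higher in 6 of 8 mice at 0.22 ± 0.07 (SE, adjusted p = 0.0187), and did not pass after quantile normalization (adjusted p = 0.468). Its change also did not pass without pair 2 (adjusted p = 0.0652) or without pair 3 (adjusted p = 0.153). In all, 8 of the 32 genes had no overlap between the 8 ISP8 and the 8 DN3 arrays, as did 21.1% of all genes tested. Above were Pfkp, Pgk1, Pgam1, Ldha and Slc16a1 (8.26% of all genes), and below were Aldoc, Slc38a1 and Pdk1 (12.9%).

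Of the 3 pentose phosphate genes, Taldo1, the transaldolase of the non-oxidative branch, was higher at 0.20 ± 0.054 (SE, adjusted p = 0.00563), but not after quantile normalization (adjusted p = 0.401) or without pair 1 (adjusted p = 0.0585). Pgd, the NADPH-yielding phosphogluconate dehydrogenase, changed by 0.082 (95% interval -0.02 to 0.18, adjusted p = 0.19). Tkt, the transketolase, changed by 0.11 (95% interval -0.024 to 0.25, adjusted p = 0.18), with a second probe set of Tkt passing at 0.28 (adjusted p = 0.0175).

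Of the 3 genes of mitochondrial pyruvate use and HIF-1, 2 fell, an inhibitor and the enzyme it acts on. Pdk1, here pyruvate dehydrogenase kinase, which switches off pyruvate dehydrogenase and is not the kinase that phosphorylates PKB, read 2545, 2369, 2358 and 2589.8 in ISP8 PKBα-/- cells and 2933, 3405, 2353 and 2808 in ISP8 PKBα+/+ cells, against 4928, 4614, 4267 and 4881 in DN3 PKBα-/- cells and 4015, 4040.0, 4375 and 5337 in DN3 PKBα+/+ cells. All ISP8 arrays lay below all DN3 arrays. The log2 change was -0.78 ± 0.075 (SE, 0.584-fold, adjusted p = 5.14e-07), and all 3 other probe sets of Pdk1 passed, at -0.69, -0.69 and -1.48. Pdha1, the catalytic subunit that Pdk1 phosphorylates, was lower at -0.20 ± 0.058 (SE, adjusted p = 0.0102) in 7 of 8 mice, did not pass with arrays centred on their medians (adjusted p = 0.580) or without pair 4 (adjusted p = 0.0985), and had a second probe set at 0.051. Hif1a, the oxygen-regulated subunit of HIF-1, changed by 0.14 (95% interval 0.0005 to 0.28, adjusted p = 0.101).

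The balance between genes that encode alternative forms of 1 enzyme or transporter was followed in each mouse. The Aldoa to Aldoc ratio rose by 2.64 ± 0.70 on the log2 scale in ISP8 over DN3 cells, the Pfkp to Pfkl ratio by 1.60 ± 0.22 and the Ldha to Ldhb ratio by 1.14 ± 0.42, each in 8 of 8 mice (mean ± SD). The Hk2 to Hk1 ratio changed by 0.36 ± 0.42, upward in 7 of 8 mice but within the spread between mice. Neither the Slc2a1 to Slc2a3 ratio, at 0.0026 ± 0.27, nor the Slc16a1 to Slc16a3 ratio, at 0.31 ± 2.49, moved beyond the spread between mice. In PKBα-/- and PKBα+/+ mice the mean shifts were 2.66 and 2.62 for Aldoa to Aldoc, 1.64 and 1.56 for Pfkp to Pfkl, and 0.90 and 1.37 for Ldha to Ldhb. These ratios are descriptions, with no test.

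**Figure D3:**
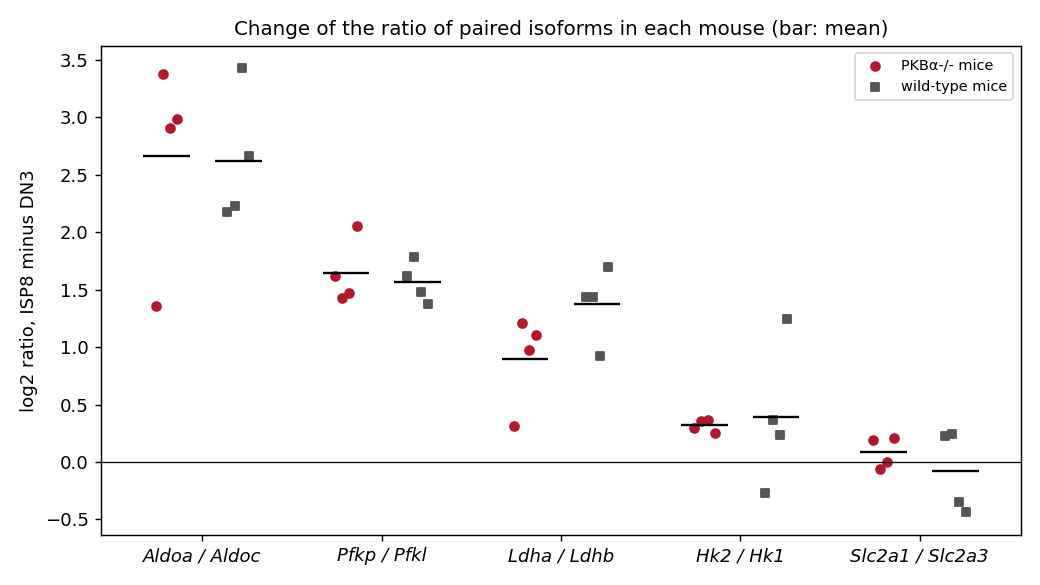
Change of the log2 ratio of paired isoforms in ISP8 over DN3 cells, 1 point per mouse, PKBα-/- left of PKBα+/+, with a line at the mean of 4 mice, for 5 of the 6 ratios. The Aldoa to Aldoc, Pfkp to Pfkl and Ldha to Ldhb ratios lie above 0 in 8 of 8 mice, and the 2 glucose transporters scatter around 0.

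Neighbouring pathways were counted in the same way, beside the 20.2% of all genes that were higher and the 26.7% that were lower. Of 24 further genes of pyruvate entry and the citric acid cycle, 16 were higher in ISP8 cells and 2 lower, with a median of 0.29. Cs, the citrate synthase, was at 7844 ± 606 in ISP8 and 6066 ± 491 in DN3 cells (SD, n = 8 mice), a log2 change of 0.37 (adjusted p = 2.76e-05). Me2, the mitochondrial malic enzyme, changed by 0.91 (adjusted p = 2.48e-07) and Idh2, the NADP-dependent isocitrate dehydrogenase, by -0.66 (adjusted p = 1.13e-06). Of 18 other glycolysis genes 2 were higher and 7 lower (median -0.31), among them Pfkfb3, which makes the activator fructose 2,6-bisphosphate, at -0.76 (adjusted p = 0.000125), and Pgm2, a phosphoglucomutase, at -0.88 (adjusted p = 9.73e-06).

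The TXNIP branch, whose members sense glucose phosphates and restrain glucose uptake, had 3 of 4 genes lower and 1 higher. Txnip, which promotes removal of GLUT1 from the cell surface, changed by -1.29 (adjusted p = 2.77e-07). Its paralog Arrdc4 changed by -2.03 (adjusted p = 0.000468) and Mlxip, the glucose-sensing partner of MLX, by -1.33 (adjusted p = 2.48e-08), while Mlx rose by 0.54 (adjusted p = 0.000981). In iron handling 6 of 9 genes were lower and none higher, including the iron exporter Slc40a1 at -2.53 (adjusted p = 6.06e-05) and the ferritin receptor Ncoa4 at -0.52 (adjusted p = 3.71e-06).

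The remaining lists were mixed: 3 higher and 3 lower of 14 other amino acid transporters, 1 and 3 of 8 other pentose phosphate genes, and 6 and 5 of 18 HIF-1 regulators and targets outside glycolysis. Among the last, Egln1, the oxygen sensor that marks HIF-1α for degradation, changed by 0.45 (adjusted p = 0.00012), and the HIF-1 targets Ddit4 and Kdm3a by -0.87 (adjusted p = 7.31e-05) and -0.61 (adjusted p = 2.70e-06). No gene of any of these lists passed in a comparison of genotypes.

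The stage change was also read in each genotype from the same model. In PKBα-/- mice 15 of the 32 genes passed, beside 28.1% of all probe sets and 33.1% of all genes read from 1 probe set each. In PKBα+/+ mice 18 passed, beside 32.7% and 37.6%, and the 15 were among the 18. Shares among genes of like intensity are not given for each genotype, so these counts are not read as above the background. Slc3a2, Taldo1 and Pdha1 passed in PKBα+/+ mice alone, while Tfrc passed over all 8 mice alone. Stage changes were 0.86 in PKBα-/- and 1.18 in PKBα+/+ mice for Slc7a5, 0.80 and 1.07 for Ldha, 0.82 and 1.07 for Tpi1, and -0.92 and -0.63 for Pdk1.

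Whether loss of PKBα altered the step between the stages was tested as the difference of these changes. None of the 32 genes passed, nor did any probe set (0%), and at an unadjusted p below 0.05 the count was 0 of 32 genes and 1495 of 32831 probe sets. The smallest unadjusted values belonged to Pdk1, at -0.29 (95% interval -0.61 to 0.029, adjusted p = 0.968), Pgk1, at -0.17 (95% interval -0.40 to 0.054, adjusted p = 0.968), and Ldha, at -0.27 (95% interval -0.63 to 0.086, adjusted p = 0.968). The sign was negative in 24 of 32 genes, beside 6810 of all 14076 genes, with a median of -0.078 against 0.010 over all genes. All genes were measured in the same mice, so their signs are not independent. Slc3a2 and Pgd were negative in 4 of 4 littermate pairs. The 95% interval lay within 0.5 of 0 for 17 genes and within 1 for 30, so for 17 of the 32 genes the interval left out differences beyond 1.41-fold.

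**Figure D4:**
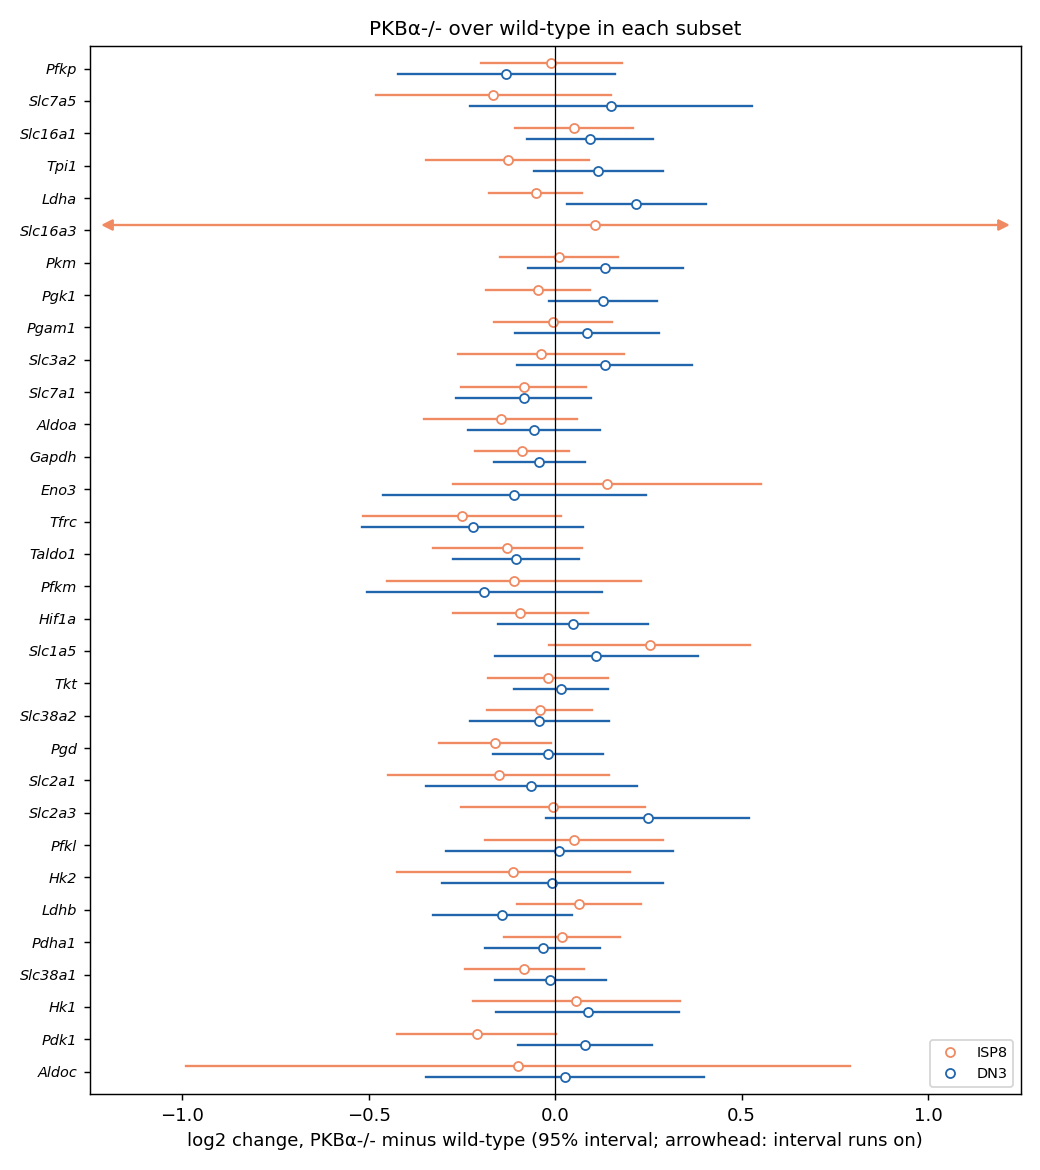
Log2 change in PKBα-/- over PKBα+/+ cells with its 95% interval (4 littermate pairs), ISP8 above DN3 cells, for each gene in the order of its ISP8 over DN3 change. Arrowheads mark the interval of Slc16a3, which runs past the axis. None passed the test in either subset, and Ldha in DN3 cells (0.22) and Pgd in ISP8 cells (-0.16) are the only ones whose interval leaves out 0.

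Within each subset, littermates were compared to ask what PKBα contributes. In ISP8 cells none of 32 genes passed, beside 0.0147% of the 34016 probe sets tested, and in DN3 cells none of 31, beside 0.0383% of 33962. At an unadjusted p below 0.05 there was 1 gene in each subset, beside 2067 probe sets in ISP8 and 1642 in DN3 cells. Slc16a3 missed the filter in DN3 cells. The paired fold and p thresholds of the study's methods were also applied, without the detection filter that the study used. The counts were again 0 of 32 in ISP8 cells, beside 1.53% of all probe sets tested, and 0 of 31 in DN3 cells, beside 1.35%.

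Pgd in ISP8 cells read 6698, 7856, 8235 and 7995 in PKBα-/- mice, against 8349.5, 8462, 8607 and 8899 in their PKBα+/+ littermates. Every knockout array lay below every wild-type array, at -0.16 (95% interval -0.31 to -0.011, adjusted p = 0.803), but without the probe sets that can bind several transcripts the sign turned (0.063). In DN3 cells the genotypes of Pgd overlapped, at 6552, 8239, 8401 and 7417 in PKBα-/- and 7327, 8121, 8075 and 7371 in PKBα+/+ cells.

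Slc1a5, which encodes the glutamine transporter ASCT2, read 999, 882, 1120.2 and 1006 in ISP8 PKBα-/- cells and 904, 587, 951 and 975 in ISP8 PKBα+/+ cells, against 739.8, 786, 1089.9 and 912 in DN3 PKBα-/- cells and 667, 916, 825 and 846 in DN3 PKBα+/+ cells. In ISP8 cells the knockout exceeded its littermate in 4 of 4 pairs, with a gap mainly in pair 2, at 0.25 (95% interval -0.017 to 0.52, adjusted p = 0.824), and 0.14 without pair 2. Pdk1 in ISP8 cells was lower in 3 of 4 pairs, at -0.21 (95% interval -0.42 to 0.0034, adjusted p = 0.817), -0.11 without pair 2 and -0.055 as the average of its probe sets.

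In DN3 cells Ldha was higher in the knockout of 3 of 4 pairs, most of all in pair 1, at 0.22 (95% interval 0.03 to 0.40, adjusted p = 0.972). Slc2a3 was at 0.25 (95% interval -0.026 to 0.52, adjusted p = 0.972), and Pgk1 at 0.13 (95% interval -0.016 to 0.27, adjusted p = 0.972). Ldha was at 0.098 without pair 1, Slc2a3 at 0.081 without pair 4 and at 0.0075 as the average of its probe sets, and Pgk1 at 0.086 without pair 1 and at 0.019 without the probe sets that can bind several transcripts. The values of Ldha, Slc2a3 and Pgk1 given above show that the genotypes overlapped. Of the gamma-delta T cell genes, 1 of 4 was higher in DN3 PKBα-/- cells (sum of 2545 to 5421, against 1342 to 4023 in DN3 PKBα+/+ cells). The sum was mostly Cd163l1, with means of 2439 in PKBα-/- and 1207 in PKBα+/+ cells. The other means were 212 and 267 for Sox13, 210 and 180 for Blk, and 435 and 404 for Maf. The neutrophil sum was 92.3 to 227 in ISP8 PKBα-/- and 189 to 4422 in ISP8 PKBα+/+ cells. It was 96.1 to 552 in DN3 PKBα-/- and 120 to 1470 in DN3 PKBα+/+ cells, and no neutrophil gene passed between genotypes in either subset. The part of gamma-delta T cells and of neutrophils in the values of the set was not tested.

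On the mean of both subsets again none of 32 genes passed, beside 0.0213% of probe sets (at an unadjusted p below 0.05, 0 genes and 1592 probe sets). Slc1a5 was higher in 4 of 4 pairs at 0.18 (95% interval -0.01 to 0.37, adjusted p = 0.991), Pgd lower in 4 of 4 at -0.09 (95% interval -0.21 to 0.033, adjusted p = 0.991), and Tfrc lower in 3 of 4 at -0.23 (95% interval -0.51 to 0.045, adjusted p = 0.991). Tfrc read 6093, 6664, 12169 and 5023 in ISP8 PKBα-/- cells and 5817, 11870.2, 11409 and 6287 in ISP8 PKBα+/+ cells, against 5402, 5194, 9834 and 5067 in DN3 PKBα-/- cells and 6430.2, 10732, 7766 and 4811 in DN3 PKBα+/+ cells. Its pair 3 males and the wild-type male of pair 2 were high in both subsets, whereas the knockout of pair 2 was not, and without pair 2 the change of Tfrc was -1.16e-05. That of Pgd was -0.040 without pair 1 and 0.032 without the probe sets that can bind several transcripts.

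The intervals bound the effect of PKBα loss. They lay within 0.5 of 0 on the log2 scale, or 1.41-fold, for 27 of 32 genes in ISP8 cells, 27 of 31 in DN3 cells and 29 of 32 in the mean of both. The widest was that of Slc16a3 in ISP8 cells, from -1.45 to 1.67, and in DN3 cells that of Slc7a5, from -0.23 to 0.53. Among glucose transporters, Slc2a1 changed by -0.15 (95% interval -0.45 to 0.14, adjusted p = 0.869) in ISP8 and -0.064 (95% interval -0.35 to 0.22, adjusted p = 0.988) in DN3 cells. Among lactate genes, Slc16a1 changed by 0.05 (95% interval -0.11 to 0.21, adjusted p = 0.926) in ISP8 and 0.094 (95% interval -0.075 to 0.26, adjusted p = 0.977) in DN3 cells. The median over the set was -0.049 in ISP8 cells, against 0.0059 over all genes, and 0.012 in DN3 cells, against -0.0074 over all genes.

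The littermate pair accounted for more of the spread than genotype. The median share of the spread of a gene that lay between pairs was 67.1% in ISP8 and 75.5% in DN3 cells, against a mean of 42.9% if spread were shared by degrees of freedom alone. The median share with genotype was 4.89% in ISP8 and 4.82% in DN3 cells, against a mean of 14.3%. With 1 degree of freedom a median share lies below the mean, so the genotype share cannot be read as less than expected. Shares over all genes are not given here. The pairs differ in sex, age and litter, which cannot be told apart.

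Sorting the pairs by sex, a description made after the values were seen and given with no test, compared the males of pairs 2 and 3 with the females of pairs 1 and 4. In DN3 cells 9 of 32 genes had all 4 male arrays above all 4 female arrays, beside 5.26% of all genes, and 0 had them below, beside 2.69%. These were Pfkl, Pfkm, Pfkp, Aldoa, Tpi1, Pkm, Ldha, Slc7a5 and Pgd, so all 3 phosphofructokinases were among them. Pfkl read 1180.4 to 1934 in males and 818 to 1027 in females, a log2 difference of 0.82 (male minus female). Pfkm read 502 to 772 in males and 346 to 398 in females, a difference of 0.74, and Pkm read 3895 to 4745 in males and 2408 to 3221 in females, a difference of 0.66.

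In ISP8 cells 6 genes had all male arrays above, namely Pgk1, Pgam1, Pkm, Ldha, Slc16a1 and Tfrc, beside 2.44% of all genes, and 2 had them below, Ldhb and Tkt, beside 3%. Tfrc read 6664 to 12169 in males and 5023 to 6287 in females, a log2 difference of 0.82, and Tkt read 22772 to 27881 in males and 28339 to 34800.1 in females, a difference of -0.23. Pkm and Ldha were in both lists. Littermates are not independent, so each sex stands on 2 litters. The summed proliferation genes overlapped, at 39132 to 54289 in males and 39017 to 54473 in females in DN3 cells, and at 99665 to 113142 in males and 104736 to 113522 in females in ISP8 cells. In ISP8 cells the actin gap did not overlap, at 1.85 to 2.29 in males and 2.51 to 2.90 in females. The same gap of Gapdh did overlap, at 1.49 to 1.92 in males and 1.78 to 2.39 in females. The part of RNA length in the differences between the sexes was not tested.

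**Figure D5:**
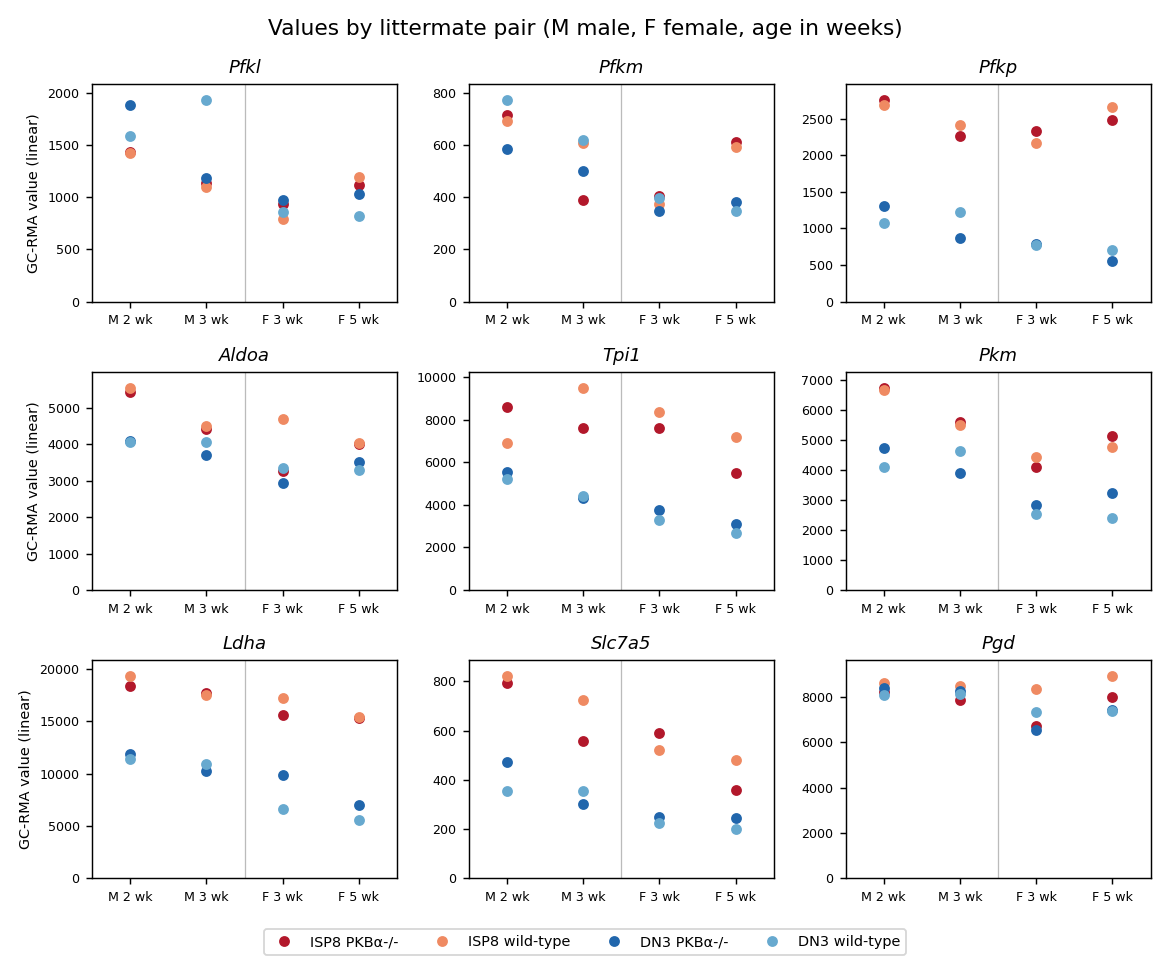
Intensity (linear scale) by littermate pair for the 9 genes whose 4 male DN3 arrays all lay above the 4 female ones, coloured by subset and genotype, with pairs ordered male 2 weeks, male 3 weeks, female 3 weeks, female 5 weeks. In DN3 cells the 4 male arrays of Pfkl (1180.4 to 1934) lie above the 4 female arrays (818 to 1027), whatever the genotype.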

How the data were processed

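Total RNA of sorted cells was amplified in 2 cycles and labelled before hybridisation. The authors deposited 1 table of GC-RMA intensity values on a linear scale, made with Refiner 3.1 (Genedata); these were used as deposited and taken to log2 with no added constant. Probe sets were named from the platform annotation, with symbols updated through Entrez identifiers: of 45101, 34958 named 1 gene, 932 several and 9211 none. For genotype within a subset, a probe set was tested where 3 or more pairs held an animal with a value above 20, and for other comparisons where 6 or more mice held a subset with one.

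limma 3.58.1 in R 4.3.3 was used (lmFit, eBayes with trend), with littermate pair or mouse as a block and Benjamini-Hochberg adjustment over all probe sets tested, at 0.05. Folds are powers of the log2 change. The script was tested on simulated data. Pairs come from the labels, which name littermates; deviations of littermates correlated at 0.0807 to 0.194 in ISP8 cells and 0.337 to 0.400 in DN3 cells, and those of mice from different pairs at -0.183 to 0.0661 in ISP8 cells and -0.247 to 0.0708 in DN3 cells. The number of arrays limits the precision.

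The genes and the related lists were chosen with earlier results of these data known. Values in every sample were given for the 12 genes with the largest changes that passed between subsets and for the 3 with the smallest p in each comparison of genotypes. Alternatives were other normalization, filters, added constant, probe set choice, blocks and trend, and leaving out each pair.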

Additional observations from a re-analysis of the deposited data

Results flagged for a closer look

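Among 128 groups of 4 arrays (32 genes in 4 groups), 6 held 1 array whose gap to the nearest of the others exceeded Dixon's 95% limit for 4 values on the log2 scale, beside about 1 in 20 groups, or 6.4, by chance. Slc2a3 was low in the ISP8 PKBα-/- array of pair 4, at 840.4, with the other 3 at 1228 to 1318. Aldoc was low in the ISP8 PKBα+/+ array of pair 3, at 33.3, with the others at 69.8 to 79.6. Tfrc was high in the DN3 PKBα-/- array of pair 3, at 9834, with the others at 5067 to 5402. Slc1a5 was low in the ISP8 PKBα+/+ array of pair 2, at 587, with the others at 904 to 975. Slc7a1 was low in the DN3 PKBα+/+ array of pair 3, at 4804, with the others at 5675 to 5801. Pdha1 was high in the DN3 PKBα+/+ array of pair 2, at 7357, with the others at 6646 to 6723.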

How the results depend on the processing

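Under every alternative 0 genes of the set passed in the comparisons of genotypes and in the difference, with or without the replicate block. Between subsets 16 to 22 of 32 passed over all alternatives (18 to 19 leaving out each pair, 18 without the block, beside 19), and no gene that passed turned its sign in 265 values, 250 of which still passed. Those that lost the threshold included Tfrc, Taldo1 and Pdha1, named above with the pairs, and Tfrc also without the block (adjusted p = 0.421). Conversely, Ldhb passed without pair 1 (-0.32, adjusted p = 0.0111), Tkt without pair 2 (0.19, adjusted p = 0.0270) and Hif1a without pair 4 (0.20, adjusted p = 0.0391); Eno3 and Ldhb passed after quantile normalization, Eno3, Hif1a, Pgd, Slc38a2 and Tkt with arrays centred on their medians, and Pfkl and Hif1a with averaged probe sets, which ended the call of Slc7a1. Quantile normalization and centring arrays on their medians moved the median of all genes by 0.068 and 0.16, and gave 13 higher and 6 lower, and 19 higher and 3 lower, in place of 14 and 5. The share of higher calls over all probe sets was then 51.3% and 57%, in place of 41.4%. With centring, the median of the set in ISP8 over DN3 was 0.34, in PKBα-/- mice 0.33 and in PKBα+/+ mice 0.37; in PKBα-/- mice it was 0.14 after quantile normalization and 0.14 to 0.20 leaving out each pair. Averaging all probe sets of a gene gave 1.95 for the Pfkp to Pfkl ratio and -0.29 for Slc2a1 to Slc2a3, which was -0.35 without probe sets that can bind several transcripts. Signs turned only for changes that had not passed: Hk2 (0.030 with quantile normalization, 0.021 with centring), Slc38a2 (-0.075 with quantile normalization, -0.16 with averaged probe sets), Pgd (-0.096 with quantile normalization), Pfkl (0.041 with centring), and, leaving out each pair, Slc16a3 (-0.28 to 1.65), Slc2a3 (-0.030 to 0.15) and Pfkm (-0.023 to 0.29). Without the probe sets that can bind several transcripts, Pgd in PKBα-/- over PKBα+/+ was 0.063 in ISP8 cells and 0.032 in the mean of both subsets. The cause was not tested. Over all probe sets, genotype calls ranged from 0 to 62 in DN3 cells (13 as reported), 1 to 19 in ISP8 cells (5) and 0 to 13 in the mean (7). With 1 averaged value per gene, 12794 genes were tested in ISP8 over DN3 and 5569 called (13853 of 32831 probe sets as reported), 3787 in PKBα-/- mice (9212) and 4330 in PKBα+/+ mice (10743). With 4 pairs, effects within the intervals given cannot be left out.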

Other observations

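Aldoa, Tpi1, Pgk1, Pgd, Tkt, Slc2a3 and Slc38a1 were read from probe sets that name 1 gene but are of the kind that can bind several transcripts. Other probe sets are annotated to several genes and were left out of the gene values. Of these, 3 list Gapdh among their genes and changed by 0.19, 0.67 and 0.94 in ISP8 over DN3 cells, each with an adjusted p below 0.05, and 1 lists Hk1 and changed by -0.080 (adjusted p = 0.0926).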
